A study of Homo sapiens with 20 samples.

Results

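RUNX1 binding was examined around 10 genes that direct or mark lymphoid cell fates: GATA3, TCF7, LEF1, BCL11B and the receptor NOTCH1 on the T-cell side, BCL11A, EBF1 and PAX5 on the B-cell side, and the Ikaros family members IKZF1 and IKZF2. Every RUNX1 peak whose interval lay within 50 kb of the RefSeq span of such a gene (assembly GRCh38.p14) was taken, which gave 31 of the 26642 peaks of the table. These 31 peaks belonged to 8 of the 10 genes, because no peak lay within 50 kb of GATA3 or IKZF2. The question was whether lowering PU.1 opens RUNX1 sites at genes of other blood lineages.

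The series measured RUNX1 occupancy by chromatin immunoprecipitation and sequencing (ChIP-seq) in cultured THP-1 cells, a long-established line from a human acute monocytic leukemia. The knockdown cells carried an inducible short hairpin RNA against PU.1 and the control cells an inducible scramble hairpin. Doxycycline was added to both to switch the hairpin cassette on, so control cells were exposed to the drug as well. The 6 control and 6 knockdown libraries came from 2 experimental rounds, called batches in the labels: batch 1 held control replicates 1 to 3 and knockdown replicates 1 and 2, and batch 2 held control replicates 4 to 6 and knockdown replicates 3 to 6. Per the study the replicates were cell line replicates with separate immunoprecipitations. The p-values thus describe the spread between libraries and not between patients or separately derived lines. Neither the sample titles nor the methods name several lines per hairpin, so line differences cannot be told apart from the knockdown. The 8 IgG libraries of the series were not analysed here.

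PU.1, encoded by SPI1, is an ETS-family factor that is needed for myeloid and B-cell development and has to be switched off for T-cell commitment. RUNX1 is a Runt-domain factor that binds DNA together with its partner CBFB and acts in blood stem cells, myeloid cells and lymphoid cells alike, with binding partners that differ between them. In early thymocytes, Notch signals induce TCF7 and GATA3 and later BCL11B, while EBF1 and PAX5 set up and hold the B-cell fate and IKZF1 acts in both branches.

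Sequence was at hand only for promoters, given as RefSeq start-site windows of 300 bases (250 before to 50 after a start), and all 10 genes matched, with 23 windows. RUNX1 peaks covered 3 of these 23 windows, against 23.8% of all 35116 windows. The first 3 sequences below are those covered windows, shown because the data bear on them, and the last 2 are the first windows of the genes without a peak, shown as the contrast. Each is written 5′ to 3′ on the strand of its gene, and capitals mark the letters TGTGGT or TGCGGT (RUNX type) and GGAAGT (ETS type) on either strand.
NOTCH1 (chr9:136545999-136546298, minus strand): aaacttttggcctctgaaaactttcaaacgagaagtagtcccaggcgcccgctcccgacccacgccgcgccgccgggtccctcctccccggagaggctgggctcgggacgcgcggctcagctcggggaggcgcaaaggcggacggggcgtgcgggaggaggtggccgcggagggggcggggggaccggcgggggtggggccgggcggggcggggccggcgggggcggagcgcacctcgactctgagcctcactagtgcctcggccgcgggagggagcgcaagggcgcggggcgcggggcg
IKZF1 (chr7:50304466-50304765, plus strand): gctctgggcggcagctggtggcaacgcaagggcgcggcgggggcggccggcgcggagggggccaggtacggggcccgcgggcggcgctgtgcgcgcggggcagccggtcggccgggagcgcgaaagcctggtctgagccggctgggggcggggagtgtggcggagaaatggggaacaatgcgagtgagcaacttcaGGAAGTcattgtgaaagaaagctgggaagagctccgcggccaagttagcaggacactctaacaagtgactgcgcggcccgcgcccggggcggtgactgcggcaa
BCL11A, start inside the gene (chr2:60528486-60528785, minus strand): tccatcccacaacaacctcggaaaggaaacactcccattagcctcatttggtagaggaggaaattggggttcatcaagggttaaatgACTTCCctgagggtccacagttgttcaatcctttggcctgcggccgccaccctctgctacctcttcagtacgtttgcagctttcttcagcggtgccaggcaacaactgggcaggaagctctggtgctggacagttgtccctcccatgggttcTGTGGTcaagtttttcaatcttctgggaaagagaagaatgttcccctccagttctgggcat
GATA3 (chr10:8045083-8045382, plus strand): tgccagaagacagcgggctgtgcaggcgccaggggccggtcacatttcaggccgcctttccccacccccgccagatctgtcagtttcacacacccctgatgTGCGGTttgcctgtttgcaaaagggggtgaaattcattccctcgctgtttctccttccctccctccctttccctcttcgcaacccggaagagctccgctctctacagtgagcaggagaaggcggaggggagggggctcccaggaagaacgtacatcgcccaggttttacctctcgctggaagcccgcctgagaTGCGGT
IKZF2 (chr2:213152407-213152706, minus strand): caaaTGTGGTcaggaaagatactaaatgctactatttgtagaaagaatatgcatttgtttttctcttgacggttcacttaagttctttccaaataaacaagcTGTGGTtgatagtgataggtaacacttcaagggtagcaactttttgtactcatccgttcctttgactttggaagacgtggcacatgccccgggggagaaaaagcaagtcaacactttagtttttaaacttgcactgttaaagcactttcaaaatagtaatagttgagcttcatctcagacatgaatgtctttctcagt
The covered NOTCH1 window held none of these letters, the IKZF1 window held GGAAGT once, and the BCL11A window held TGTGGT and GGAAGT once each. The GATA3 window held TGCGGT in 2 places and the IKZF2 window TGTGGT in 2 places, although neither was covered by a peak. The other windows of GATA3 and IKZF2, not shown, held at most 1 RUNX-type match each, so those shown are not typical. Over all windows, TGTGGT occurred in 13.1%, TGCGGT in 7.29% and GGAAGT in 22.8%. The longer PU.1-type letters GAGGAAGT, which contain GGAAGT, occurred in 2.59% of all windows and in 0 of the 23. Of the 23 windows, 5 held TGTGGT, 4 held TGCGGT and 6 held GGAAGT. A RUNX-type match of either kind was present in 9, and the share of all windows with either kind was not determined. These are letter matches in short windows and not binding sites.

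Control libraries held 630247 to 1199004 in-peak reads and knockdown libraries 938745 to 1719840, and the median peak received 18 to 48 reads, so low peaks carried considerable counting error. The 31 peaks took up 0.111% ± 0.0045 (SD, n = 6) of the in-peak reads of control libraries and 0.109% ± 0.0037 (SD, n = 6) of those of knockdown libraries. The assay does not measure the PU.1 transcript, so the level of knockdown is unknown from these data, and it measures binding, so expression of cell type markers could not be read either. Peaks lay within 50 kb of 14 of 15 monocytic and other myeloid marker genes, 13 of 15 T-cell effector markers and 11 of 15 B-cell effector markers. This stood beside 80.8% of all 20037 protein-coding genes and 8 of the 10 lymphoid regulators. Control replicate 1 stood apart near start sites: its counts there exceeded its counts elsewhere by a log2 difference of 0.33 relative to the group, against -0.12 to -0.0024 in the other control libraries. Where a result rests on that library, the value without it is given.

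**Figure D1:**
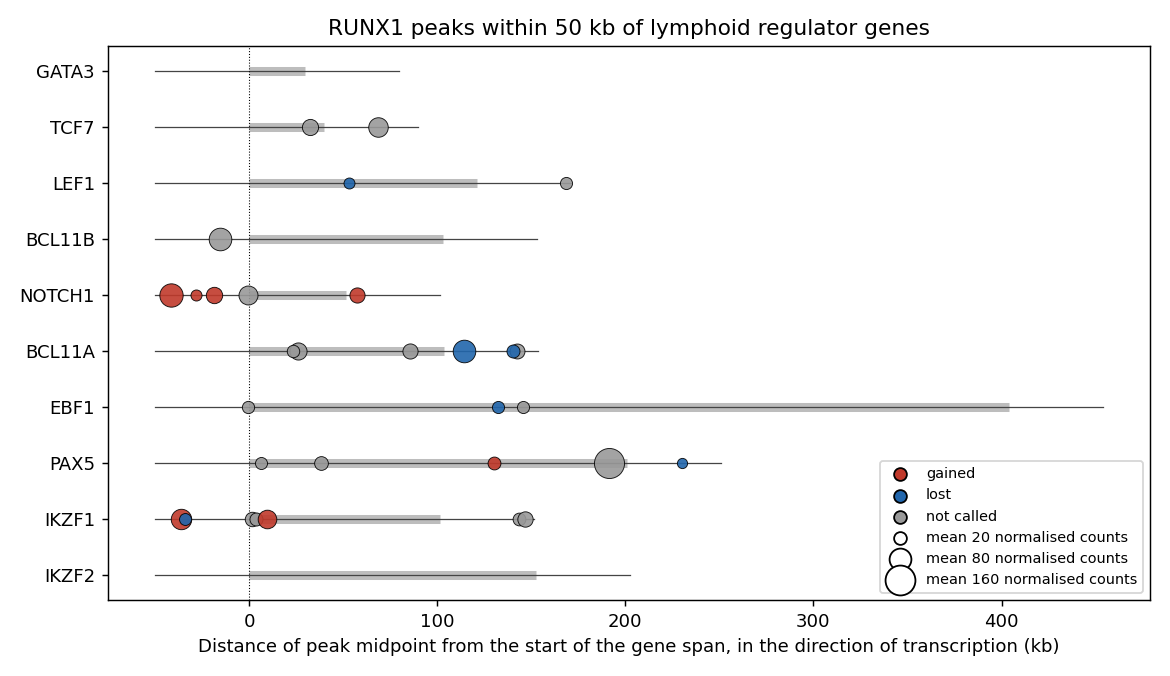
Position of the 31 RUNX1 peaks around the 10 genes. The horizontal axis gives the distance of the peak midpoint from the start of the gene span in kb, in the direction of transcription, grey bars are gene spans, thin lines the 50 kb windows, circle size the mean normalised count and colour the call. Gained peaks collected before NOTCH1, lost peaks lay inside LEF1 and EBF1 and behind BCL11A, and the GATA3 and IKZF2 windows were empty.

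Peaks are named below by their gene and by the distance in kb of the peak midpoint from the start of the gene span, negative where the peak lies before the gene. Values are normalised read counts, that is reads divided by the size factor of the library, and a peak was called gained or lost when DESeq2, with batch as a covariate, gave an adjusted p under 0.05 and a fold change over 1.1. Of the 31 peaks, 13 (41.9%) were called, beside 42% of all peaks. Gains made up 7 peaks (22.6%), beside 21.3% of all peaks, and losses 6 peaks (19.4%), beside 20.7%. Shares this near the background are not a result about these genes, and the description that follows is of single loci. The median log2 fold change over the 31 peaks was -0.0058, beside -0.025 over all peaks, so the centre of these peaks lay close to that of the table. In bulk chromatin, fewer cells with RUNX1 at a site and less RUNX1 per cell cannot be told apart.

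The 7 gained peaks had a median log2 fold change of 0.66, beside 0.91 over all gained peaks, and 2 of them (28.6%) exceeded 2-fold, beside 41.7% of all gained peaks. The 6 lost peaks had a median of -1.38, beside -0.85 over all lost peaks, and 4 of them (66.7%) exceeded 2-fold, beside 39.6% of all lost peaks. Among gained peaks the median of the control means was 31.0 and that of the knockdown means 49.2, beside 17.6 and 35.6 over all gained peaks. Among lost peaks the corresponding medians were 25.0 and 8.10, beside 41.2 and 21.6 over all lost peaks. The lost peaks here thus started from lower counts than lost peaks of the whole table. These contrasts with all called peaks were not tested. No IgG or input background was set beside these counts.

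**Figure D2:**
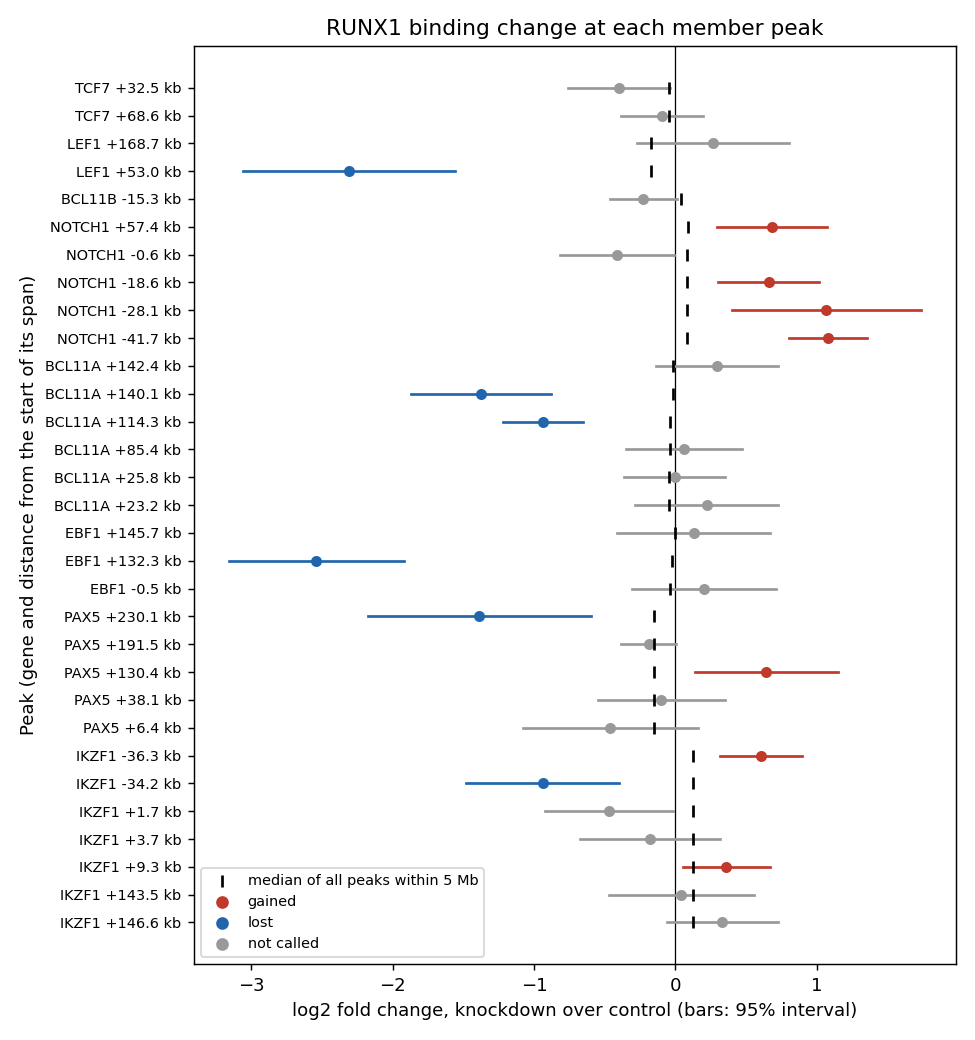
Change in RUNX1 binding at each of the 31 peaks. The horizontal axis is the DESeq2 log2 fold change, knockdown over control, with 95% intervals over 6 control and 6 knockdown libraries, and black ticks mark the median of all peaks within 5 Mb. The 18 uncalled peaks have estimates from -0.47 to 0.33, whereas the lost peaks of EBF1 and LEF1 lie beyond -2.

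NOTCH1 was the locus with the most gains: 4 of its 5 peaks were gained and none was lost, beside 21.3% gained of all peaks. How often the windows of other genes reach such a count was not determined, so the count is not a result about NOTCH1. The stretch of chromosome 9 from 130 to 140 Mb held 39 gains and 25 losses among 156 peaks. NOTCH1 encodes a cell surface receptor whose ligand-released intracellular part activates transcription with RBPJ, and it drives T-cell commitment. The gene lies on chromosome 9 (136494433 to 136546048, minus strand). The strongest peak, NOTCH1 -41.7 (chr9:136586952-136588594), lay upstream and outside any RefSeq gene. Its normalised counts ran from 45.1 over a median of 59.7 to 80.05 in control libraries and from 107 over a median of 119 to 160 in knockdown libraries. Every knockdown library was thus above every control library. The mean rose from 60.1 ± 11.5 to 126 ± 22.1 (SD, n = 6 each), a 2.12-fold gain (log2 1.08 ± 0.14, SE, adjusted p = 5.53e-13). The gain was called in each batch alone, with log2 1.41 in batch 1 (adjusted p = 2.76e-06) and 0.82 in batch 2 (adjusted p = 0.000217).

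The other upstream gains were smaller in signal. NOTCH1 -18.6 (chr9:136564115-136565274) ran from 26 over 30.0 to 37.9 in control and from 41.0 over 48.6 to 60.3 in knockdown libraries (lowest, median, highest), again without overlap. Its mean went from 31.0 ± 5.12 to 49.2 ± 6.31 (log2 0.66 ± 0.18, adjusted p = 0.00132). NOTCH1 -28.1 (chr9:136573842-136574478) was a weak peak at 7.95 ± 2.69 in control and 16.3 ± 4.76 in knockdown libraries. Its groups touched, since the highest control library stood at 12.1 and the lowest knockdown library at 11.9 (log2 1.07 ± 0.34, adjusted p = 0.00606). With the replicate number added to the model as a block this call was lost (adjusted p = 0.131). Neither of these 2 peaks passed the threshold in a batch alone.

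The fourth gain, NOTCH1 +57.4 (chr9:136488334-136489057), lay beyond the 3′ end of NOTCH1 and nearer to SEC16A, which encodes a protein of endoplasmic reticulum exit sites. It ran from 20.8 over 25.9 to 26.5 in control and from 30.9 over 42.0 to 48.7 in knockdown libraries, without overlap (log2 0.68 ± 0.20, adjusted p = 0.00228). It was called in batch 2 alone (log2 0.84, adjusted p = 0.0151) and not in batch 1 alone (log2 0.49, adjusted p = 0.495).

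The peak over the NOTCH1 start site behaved unlike its neighbours. NOTCH1 -0.6 (chr9:136545731-136547618), which covers the promoter printed above, carried 68.5 ± 30.6 in control and 47.1 ± 15.3 in knockdown libraries and was not called (log2 -0.41 ± 0.21, adjusted p = 0.0926). Control replicate 1 stood at 130 there, far above the 48.1 to 62.4 of control replicates 2 to 6. Without that library the log2 fold change was -0.22 (adjusted p = 0.361). The call appeared without control replicate 2 (adjusted p = 0.0485) or without control replicate 3 (adjusted p = 0.0446). Summed over its 5 peaks, the NOTCH1 window held 192 ± 29.9 normalised counts in control and 280 ± 37.0 in knockdown libraries, a ratio of 1.46, with sums of 163.03 to 246.9 against 224.6 to 329.7 that overlapped. The highest control sum was that of control replicate 1, and without that library the sums did not overlap.

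The surrounding regions differed in their overall level. The median log2 fold change of all peaks within 5 Mb was 0.09 around NOTCH1, and over the 10 genes it ran from -0.17 at LEF1 to 0.16 at GATA3. After centring each peak on this median, all 4 NOTCH1 gains were still called, with adjusted p between 3.2e-11 and 0.0123. NOTCH1 -0.6 then passed the threshold as lower (adjusted p = 0.0407). That call includes control replicate 1, and centring was not repeated without this library.

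**Figure D3:**
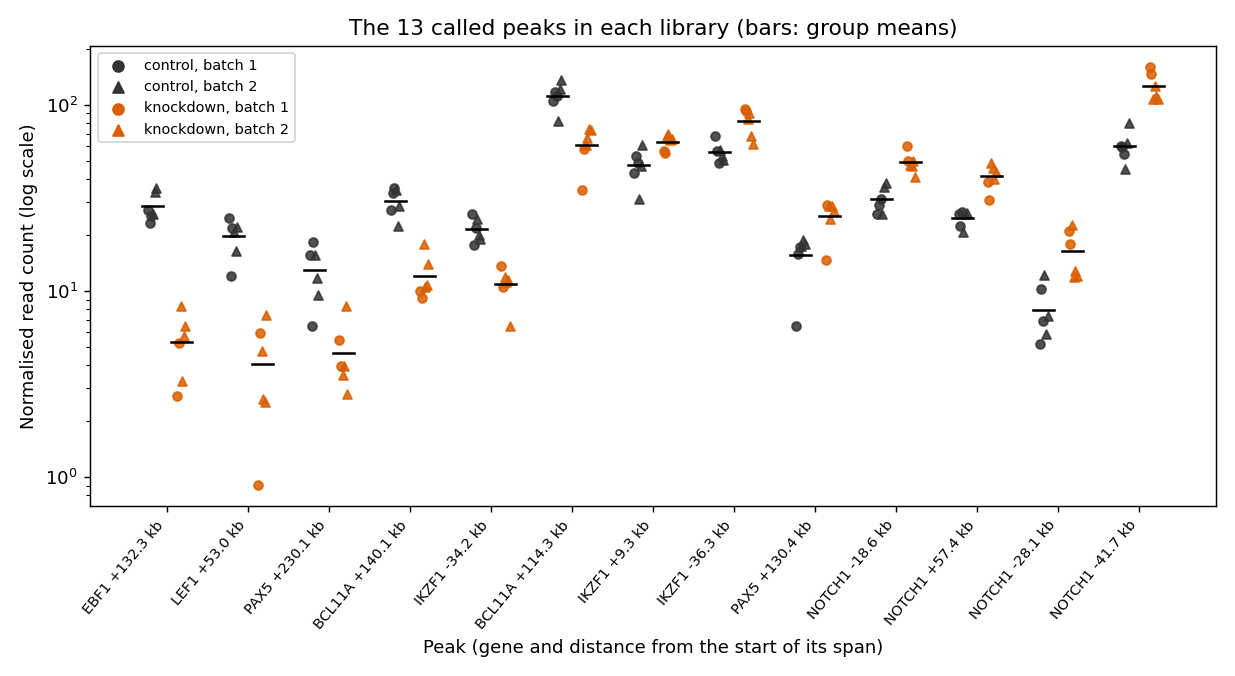
The 13 called peaks in each library. The vertical axis is the normalised read count on a log scale, grey symbols are control and orange symbols knockdown libraries, circles are batch 1 and triangles batch 2, and bars are group means of 6 libraries. At EBF1 +132.3 and LEF1 +53.0 all knockdown libraries lie below all control libraries, whereas at NOTCH1 -41.7 all lie above.

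Among the T-lineage factors, LEF1 had the only call. LEF1, which encodes a DNA-binding partner of beta-catenin related to TCF7, lies on chromosome 4 (108047548 to 108168932, minus strand). LEF1 +53.0 (chr4:108115662-108116150) lay inside the gene span. Control libraries ran from 12.1 over a median of 21.4 to 24.7 and knockdown libraries from 0.913 over 3.70 to 7.45, so the groups did not overlap. The mean fell from 19.7 ± 4.59 to 4.04 ± 2.44 (SD, n = 6 each), a 4.96-fold loss (log2 -2.31 ± 0.38, adjusted p = 2.75e-08). The loss was called in batch 1 (log2 -2.39, adjusted p = 0.0158) and in batch 2 (log2 -2.26, adjusted p = 0.000207). The other peak of the window, LEF1 +168.7, lay in HADH, which encodes a mitochondrial fatty acid oxidation enzyme, and was not called (15.4 ± 3.46 against 18.5 ± 4.75, log2 0.27, adjusted p = 0.459).

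TCF7 encodes TCF-1, which Notch induces at the start of T-cell development, and lies on chromosome 5 (134108218 to 134148210, plus strand). Neither of its 2 peaks was called. The stronger, TCF7 +68.6 (chr5:134175946-134177759), covered the promoter of the neighbour SKP1, which encodes a ubiquitin ligase subunit, and carried 64.7 ± 12.1 in control and 58.8 ± 5.22 in knockdown libraries (log2 -0.09, 95% interval -0.38 to 0.20). TCF7 +32.5, inside the gene, carried 44.1 ± 6.23 and 33.6 ± 5.73 (log2 -0.40 ± 0.18). It missed the threshold with DESeq2 (adjusted p = 0.067) and passed it with the edgeR quasi-likelihood test (adjusted p = 0.0458). That peak is outside the naming rule and was chosen after its values were seen.

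BCL11B, the factor that seals T-cell commitment, lies on chromosome 14 (99169287 to 99272197, minus strand). Its window held 1 peak, BCL11B -15.3 (chr14:99287051-99287871), which covered the promoter of the uncharacterised gene LOC105370660. This was among the strongest RUNX1 sites of the table, at percentile 98.4 of counts per kb of peak. Control libraries ran from 86.7 over 93.7 to 99.1 and knockdown libraries from 70.3 over 81.5 to 85.9. The groups did not overlap, yet the difference was small (93.8 ± 4.78 against 79.6 ± 6.40, log2 -0.23, 95% interval -0.46 to 0.01) and was not called (adjusted p = 0.124).

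GATA3, the zinc finger factor that T-cell development needs from its first steps on, lies on chromosome 10 (8045333 to 8075198, plus strand) and had no peak within 50 kb. The nearest peak (chr10:8132904-8133687) began 57706 bp beyond the gene and is therefore not among the 31 peaks, and it is given as a value just outside the rule. Control libraries there ran from 50.3 to 84.3 and knockdown libraries from 10.96 to 19.8. The mean fell from 64.2 ± 14.5 to 15.4 ± 3.17 (log2 -2.07 ± 0.21, adjusted p = 1.01e-20), while the median of all peaks within 5 Mb of GATA3 was 0.16.

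Of the B-lineage factors, EBF1 carried the deepest loss among the 31 peaks. EBF1 encodes the factor that specifies early B cells and lies on chromosome 5 (158695920 to 159099916, minus strand). At EBF1 +132.3 (chr5:158967335-158967989), inside the gene span, control libraries ran from 23.3 over 26.7 to 35.8 and knockdown libraries from 2.74 over 5.50 to 8.31. The groups lay far apart in both batches. The mean fell from 28.6 ± 5.07 to 5.31 ± 2.06 (SD, n = 6 each), a 5.82-fold loss (log2 -2.54 ± 0.32, adjusted p = 5.42e-14), with log2 -2.59 in batch 1 (adjusted p = 0.00157) and -2.50 in batch 2 (adjusted p = 1.99e-07). The peak next to the EBF1 start, EBF1 -0.5, covered the promoter of the non-coding gene LINC02202 and was not called (16.1 ± 2.65 against 19.1 ± 3.34, log2 0.20, adjusted p = 0.561). EBF1 +145.7 was not called either (log2 0.13).

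BCL11A, a zinc finger repressor that B-cell development requires and that silences fetal globin in red cells, lies on chromosome 2 (60450520 to 60553924, minus strand). Its window held 6 peaks with 2 losses and no gain, and both losses lay beyond the 3′ end. BCL11A +114.3 (chr2:60439072-60440150) covered the promoter of LOC124906010, a gene without an established role. It ran from 81.5 over 115 to 136 in control and from 34.7 over 63.3 to 73.9 in knockdown libraries, without overlap (112 ± 18.2 against 61.1 ± 14.5, log2 -0.93 ± 0.14, adjusted p = 2.14e-09). BCL11A +140.1 (chr2:60413290-60414324) lay in the same neighbouring gene and ran from 22.3 over 31.0 to 35.7 in control and from 9.22 over 10.7 to 17.8 in knockdown libraries. It too showed no overlap (30.3 ± 5.21 against 12.1 ± 3.24, log2 -1.38 ± 0.25, adjusted p = 5.96e-07).

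Both BCL11A losses were called in each batch alone, with log2 -1.23 and -0.74 at BCL11A +114.3 and -1.73 and -1.12 at BCL11A +140.1. Inside the gene the signal was level. BCL11A +25.8, over the internal start printed above, carried 44.4 ± 12.5 in control and 45.7 ± 8.83 in knockdown libraries (log2 -0.01, 95% interval -0.36 to 0.35). BCL11A +142.4, only a short distance from the lost BCL11A +140.1, was not called and had a log2 fold change of 0.30 (adjusted p = 0.284). The remaining 2 BCL11A peaks had log2 fold changes of 0.06 and 0.22 and were not called.

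PAX5, the factor that keeps B cells committed, lies on chromosome 9 (36833269 to 37034268, minus strand). Its window held the strongest of the 31 peaks, PAX5 +191.5 (chr9:36842191-36843341), inside the gene span and at percentile 99.5 of counts per kb. Control libraries there ran from 151 over 170 to 198 and knockdown libraries from 136 over 151 to 170, so the groups overlapped (172 ± 18.7 against 152 ± 13.6, log2 -0.19, 95% interval -0.38 to 0.01, adjusted p = 0.116). Counts at this site were thus high for this table in both groups.

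The 2 called PAX5 peaks were weak and went opposite ways. PAX5 +230.1 (chr9:36803921-36804328) lay beyond the 3′ end and ran from 6.51 over 13.7 to 18.4 in control and from 2.80 over 3.96 to 8.29 in knockdown libraries. Its groups overlapped across batches but not within a batch (log2 -1.39 ± 0.40, adjusted p = 0.0023), and the call was lost when the replicate number was added as a block (adjusted p = 0.0551). PAX5 +130.4 (chr9:36903611-36904210) lay inside the gene and ran from 6.50 over 17.3 to 18.8 in control and from 14.6 over 27.8 to 29.0 in knockdown libraries. In both groups the lowest value was replicate 1. The peak was called gained (15.6 ± 4.56 against 25.4 ± 5.53, log2 0.64 ± 0.26, adjusted p = 0.0328), but not without control replicate 1 (log2 0.53, adjusted p = 0.0909). Leaving out control replicates 4, 5 or 6 or knockdown replicates 2 or 5 also ended the call, with adjusted p up to 0.21. Neither peak was called in a batch alone. PAX5 +38.1 and PAX5 +6.4, also inside the gene, had log2 fold changes of -0.10 and -0.46 and were not called.

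IKZF1 encodes Ikaros, a zinc finger factor that lymphoid development depends on and that myeloid cells express as well. It lies on chromosome 7 (50303455 to 50405101, plus strand), and its window held 7 peaks, of which 2 were gained and 1 was lost. Upstream of the gene, neighbouring peaks moved in opposite directions. IKZF1 -36.3 (chr7:50266598-50267711) ran from 48.4 over 54.8 to 67.6 in control and from 61.5 over 87.4 to 95 in knockdown libraries. Within each batch all knockdown libraries were above all control libraries, and the peak was called gained (55.5 ± 6.82 against 81.9 ± 13.9, log2 0.60 ± 0.15, adjusted p = 0.000213).

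Only 1231 bp further on began IKZF1 -34.2 (chr7:50268943-50269480). It ran from 17.7 over 20.9 to 26 in control and from 6.52 over 11.4 to 13.7 in knockdown libraries, without overlap, and was called lost (21.5 ± 3.21 against 10.9 ± 2.39, log2 -0.94 ± 0.28, adjusted p = 0.00262). The fitted log2 fold changes of the pair differed by 1.54. Neither peak of the pair was called in a batch alone, where adjusted p lay between 0.0507 and 0.321.

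IKZF1 +9.3 (chr7:50312354-50313197), inside the gene, was a borderline gain (47.3 ± 10.0 against 63.2 ± 5.85, log2 0.36 ± 0.16, adjusted p = 0.0488). The median of all peaks within 5 Mb was 0.13, and after centring on it the call was gone (adjusted p = 0.233). It was also lost without any 1 of 10 of the 12 libraries, the exceptions being control replicates 2 and 6. IKZF1 +1.7 (chr7:50304562-50305808), over the promoter printed above, was not called (33.6 ± 13.3 against 24.03 ± 2.73, log2 -0.47 ± 0.23, adjusted p = 0.0905). Control replicate 1 was its highest value at 57.2, and without it the log2 fold change was -0.28 (adjusted p = 0.343), whereas without control replicate 3 the peak was called lower (adjusted p = 0.0223). After centring on the regional median, with control replicate 1 included, IKZF1 +1.7 was called lower as well (log2 -0.60, adjusted p = 0.0272). The 3 further IKZF1 peaks, 2 of them in FIGNL1, had log2 fold changes of -0.18 to 0.33 and were not called.

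IKZF2 encodes Helios, an Ikaros relative found in regulatory T cells, and lies on chromosome 2 (212999698 to 213152456, minus strand). No peak lay within 50 kb of it, and the nearest (chr2:212815334-212815977) was 183721 bp away. That peak was not called (21.3 ± 4.62 against 15.2 ± 5.95, log2 -0.55 ± 0.27, adjusted p = 0.0906).

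**Figure D4:**
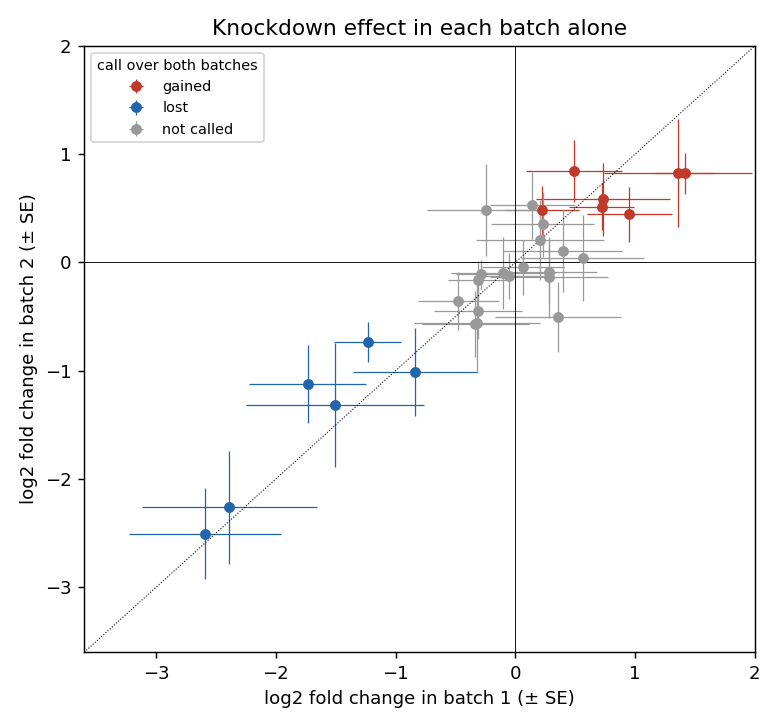
Effect of the knockdown in each batch alone. The axes give the DESeq2 log2 fold change, knockdown over control, in batch 1 (3 control, 2 knockdown libraries) and batch 2 (3 control, 4 knockdown libraries), bars are standard errors and colours the calls over both batches. The 13 called peaks all have the same sign in both batches and lie at the lower left or the upper right.

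The direction was shared between batches for 26 of the 31 peaks (83.9%), beside 80% of all peaks, and for all 13 called peaks. Fewer calls were made in a batch alone. In batch 1, 1 peak was gained (3.23%, beside 5.38% of all peaks) and 4 were lost (12.9%, beside 6.61%). In batch 2, 2 peaks were gained (6.45%, beside 12.8%) and 4 were lost (12.9%, beside 13.1%). The 4 losses of each batch were those at LEF1 +53.0, EBF1 +132.3, BCL11A +140.1 and BCL11A +114.3. The batch 1 losses fell to 0 without knockdown replicate 1, to 1 without knockdown replicate 2 and to 2 without control replicate 3, and where 1 knockdown library was left it was assumed to vary like the controls. The batch 2 gains fell to 1 without control replicate 4, 5 or 6 or knockdown replicate 4, and the batch 2 losses to 2 without control replicate 6.

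The effect of the knockdown did not differ between batches past the threshold at any of the 31 peaks, and DESeq2's interaction test called 0% of all peaks. At an unadjusted p under 0.05 the interaction picked 1 of the 31 peaks (3.23%, beside 2.51% of all peaks), NOTCH1 -41.7, where the gain was larger in batch 1 (unadjusted p = 0.0378 in the DESeq2 model). Every knockdown library of a batch lay above every control library of that batch, in both batches, at 5 of the 31 peaks (16.1%, beside 14.4% of all peaks). The reverse held at 7 peaks (22.6%, beside 13.9%), which were the 6 lost peaks and BCL11B -15.3.

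Few of the calls lay at start sites. Of the 31 peaks, 10 (32.3%) lay within 1 kb of a RefSeq start, beside 24.6% of the 25276 peaks for which starts were at hand. Only 1 of these 10 (10%) was called, BCL11A +114.3, beside 23.2% of all peaks near starts. Farther away 12 of 21 (57.1%) were called, beside 47.5% of all such peaks. All 3 peaks over a start of a lymphoid regulator itself, at NOTCH1, IKZF1 and BCL11A, were uncalled in the main fit. Those at NOTCH1 and IKZF1 passed the threshold as lower after centring on the regional median. Another protein-coding gene was nearer to, or also contained, 8 of the 31 peaks, so those could belong to neighbours. Outside that count, BCL11B -15.3, EBF1 -0.5, PAX5 +230.1, PAX5 +6.4 and NOTCH1 -0.6 overlapped other RefSeq genes.

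Counts summed over each window were not tested. The ratio of the knockdown to the control mean was 0.642 at LEF1, 0.685 at EBF1, 0.786 at BCL11A, 0.849 at BCL11B, 0.85 at TCF7 and 0.896 at PAX5, and 1.12 at IKZF1. The sums of control and knockdown libraries did not overlap at LEF1, EBF1, BCL11A and BCL11B and overlapped at TCF7, PAX5, NOTCH1 and IKZF1. At NOTCH1 the overlap rested on control replicate 1 alone. The TCF7 and BCL11B windows held uncalled peaks only. Non-overlap of sums was not counted over the windows of other genes, so it is not a result about these genes.

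**Figure D5:**
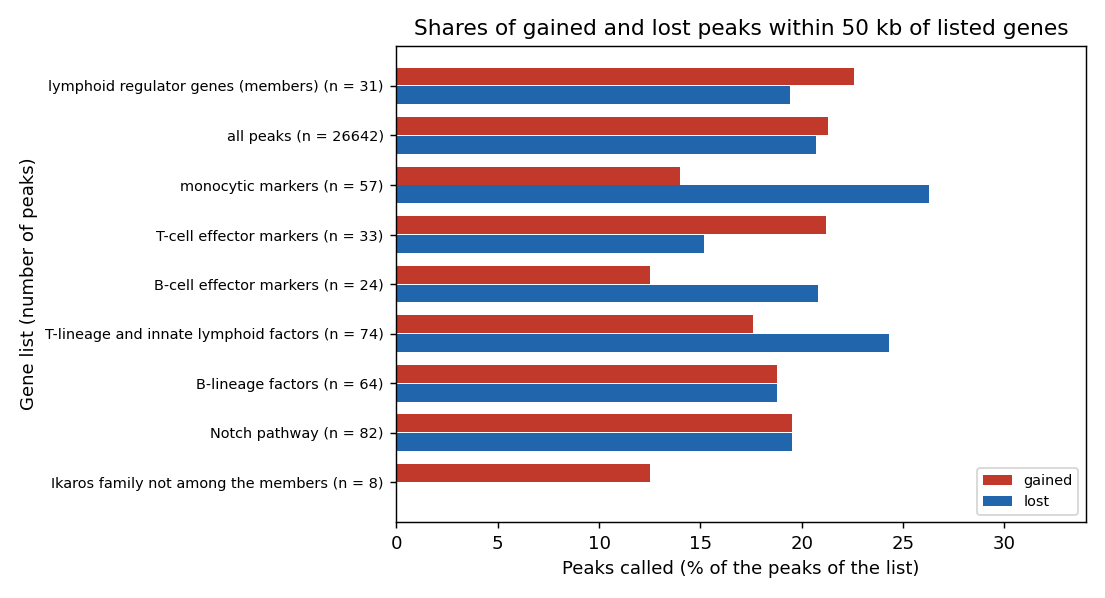
Share of gained and lost peaks within 50 kb of the genes of each list. The horizontal axis is the percentage of the peaks of a list, red bars are gained and blue bars lost peaks by DESeq2 over 6 control and 6 knockdown libraries, and the number of peaks is given beside each name. The 31 lymphoid regulator peaks show 22.6% gained and 19.4% lost, close to the 21.3% and 20.7% of all peaks.

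Lists of other genes of the same pathways were counted in the same way. A peak given at a listed gene lay within 50 kb of its span, and other genes can lie nearer to it. Around 20 further T-lineage and innate lymphoid factors, all with a peak, 13 of 74 peaks were gained and 18 lost (41.9% called, median log2 fold change 0.003). The smallest adjusted p of a gain there was at LYL1, a basic helix-loop-helix factor (6.11 ± 1.81 against 20.6 ± 5.54, log2 1.86, adjusted p = 2e-06). That of a loss was at TOX, which T-cell development requires (69.3 ± 11.6 against 12.3 ± 3.07, log2 -2.42, adjusted p = 1.3e-28). Around 15 further B-lineage factors, 12 of 64 peaks were gained and 12 lost (37.5% called, median 0.004). The leading gain was at FOXO1, a forkhead factor of early B cells (36.4 ± 4.16 against 91.0 ± 10.96, log2 1.28, adjusted p = 1.3e-14), and the leading loss at PRDM1, the repressor that drives plasma cells (72.7 ± 5.98 against 40.2 ± 4.23, log2 -0.86, adjusted p = 1.4e-07).

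Around 20 other Notch pathway genes, 16 of 82 peaks were gained and 16 lost (39% called, median -0.03), so gains and losses were equal in number there. Its leading gain was at the receptor gene NOTCH3 (17.4 ± 3.90 against 47.4 ± 8.40, log2 1.4, adjusted p = 2.3e-09) and its leading loss at the receptor gene NOTCH2 (63.9 ± 10.1 against 22.6 ± 4.44, log2 -1.55, adjusted p = 7.8e-16). The other Ikaros genes IKZF3, IKZF4 and IKZF5 had 8 peaks with 1 gain and no loss, at IKZF3 (14.7 ± 6.03 against 35.1 ± 9.19, log2 1.21, adjusted p = 2.5e-05).

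The marker lists gave myeloid and lymphoid effector genes for comparison. The list named monocytic also held ELANE, which the paper uses as a neutrophil progenitor marker, and MPO, CEBPE and CSF3R. Genes of that list had 57 peaks with 8 gains and 15 losses (40.4% called, median -0.20). Their leading gain (chr5:150159433-150160338) lay within 50 kb of CSF1R, the macrophage colony-stimulating factor receptor (8.87 ± 2.05 against 33.4 ± 7.67, log2 1.93, adjusted p = 9e-10). Their leading loss lay within 50 kb of SPI1, the gene of PU.1 (48.0 ± 4.27 against 13.2 ± 2.74, log2 -1.87, adjusted p = 5.2e-16). As for the other lists, the genes nearest to these peaks were not determined. T-cell effector genes had 33 peaks with 7 gains and 5 losses (36.4% called, median -0.02), led by a gain at CD2, an adhesion receptor (log2 1.1, adjusted p = 2.1e-06), and a loss at LAT, a T-cell receptor adaptor (log2 -0.91, adjusted p = 2.6e-07). B-cell effector genes had 24 peaks with 3 gains and 5 losses (33.3% called, median -0.13), led by a gain at the complement receptor gene CR2 (log2 0.67, adjusted p = 0.0171) and a loss at the kinase gene BLK (log2 -1.44, adjusted p = 1.5e-08). The regions of SPI1, BLK and TOX were low as a whole, with medians of -0.29, -0.32 and -0.31 over all peaks within 5 Mb, and after centring all 3 losses were still called while the gain at CR2 was not (adjusted p = 0.0647). No difference between lists was tested. The lists were not fully separate. ID2, BACH2 and LMO2 stood in both the T-lineage and the B-lineage list, and IKZF3 in both the B-lineage and the Ikaros list. Peaks near these genes were counted in each list.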

How the data were processed

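RUNX1 ChIP-seq libraries from THP-1 cells (6 control, 6 knockdown) were analysed from the raw read counts per peak that the authors deposited, with no normalization. The same table gives each peak's width in bp, used as deposited. Per the labels and the study's methods, the authors aligned reads with bowtie2, removed duplicates, used macs2 to call peaks for each condition in each batch, retained those reproducible across batches, merged both conditions and counted with featureCounts. Peaks thus come from the libraries that are compared. The labels list a human and a mouse build and the methods name the mouse build. GRCh38 was taken because 24.6% of peaks lay within 1 kb of a GRCh38.p14 RefSeq start, against 4.13% to 5.09% after moving all peaks by 10000, 100000 or 1000000 bp.

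All 26642 peaks were fitted with DESeq2 1.42.0 (R 4.3.3), with batch and knockdown as terms, median-of-ratios size factors and Benjamini-Hochberg adjustment over all peaks. Each batch was also fitted alone, and the interaction of knockdown and batch was tested. The scripts were tested on simulated data. The depth per library is given with the results. Normalised counts carry counting error that is largest at low peaks. The alternatives tried were the quasi-likelihood test of edgeR 4.0.16, different size factors, no batch term, the replicate number as a block, count filters, centring on regional or chromosomal medians, other thresholds and windows, and leaving out each library. Named peaks were the strongest and every called peak of a gene (at most 4), plus, chosen after their values were seen, the 3 peaks over a start of a member gene. For the other lists, the call with the smallest adjusted p in each direction was named. Genes and lists were chosen with earlier results of these data known, and nothing is supported by that choice. Peak sequences and start sites on chromosome 8 were not used here. No libraries were duplicates, since chi-square values over degrees of freedom were 1.29 to 2.24 within groups.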

Additional observations from a re-analysis of the deposited data

Results flagged for a closer look

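Each group of 6 libraries was examined for a library far from the other 5, at the 31 peaks and at the nearest peaks of GATA3 and IKZF2, which makes 66 groups. By Dixon's test at the 95% level, 7 values were picked, where chance alone picks about 1 in 20 groups, or 3.3 here.

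Control replicate 1 was picked at NOTCH1 -0.6, with 129.9 normalised counts, where control replicates 2 to 6 had 48.1 to 62.4. The same library was picked at PAX5 +130.4, where it was low at 6.50 against 15.8 to 18.8. At that peak knockdown replicate 1 was also low, with 14.6 against 24.4 to 29.0. Control replicate 5 was high at BCL11A +85.4, with 56.3 against 24.7 to 28.8. Knockdown replicate 3 was high at BCL11A +25.8, with 62.9 against 40.1 to 46.9, and low at IKZF1 +143.5, with 11.9 against 19.8 to 22.4. Control replicate 6 was high at EBF1 -0.5, with 21.1 against 13.8 to 16.4. Of these 6 peaks only PAX5 +130.4 was called.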

How the results depend on the processing

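The gained count of 7 became 4 with the replicate number added as a block and 2 at a fold change over 2. A window of 10 kb held 17 peaks, of which 3 were gained and 2 lost. A window of 100 kb held 46 peaks, of which 11 were gained and 9 lost. Both counts thus moved with the number of peaks taken in. The lost count of 6 also became 2 with at least 10 counts in every library. That says nothing on stability, because the filter removed 4 of the 6 lost peaks through their low knockdown counts. With edgeR in place of DESeq2, gains were 4 in batch 1 alone and 4 in batch 2 alone, against 1 and 2. Leaving out each library in turn gave 5 to 7 gains and 6 to 8 losses, 1 gain and 0 to 3 losses in batch 1 alone, 1 to 3 gains and 2 to 4 losses in batch 2 alone, and a median log2 fold change over the 31 peaks from -0.0911, without control replicate 6, to 0.0367. The cause of these moves was not tested, beyond fewer libraries or fewer peaks entering. The other alternatives left these counts within 1.5 times of the stated ones.

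Of the 13 called peaks, none changed direction, and 9 kept the call with the other tests, size factors, models and centrings, each library left out, and the count filter where it gave a value. At a fold change over 2, however, 5 of these 9 lost it, namely NOTCH1 +57.4, NOTCH1 -18.6, IKZF1 -36.3, IKZF1 -34.2 and BCL11A +114.3. At an adjusted p under 0.01 all 9 kept it. The replicate block ended the calls at NOTCH1 -28.1 (adjusted p = 0.131), PAX5 +230.1 (0.0551), PAX5 +130.4 (0.104) and IKZF1 +9.3 (0.187), and it changed no call of the other 9. Whether the replicate numbers pair the samples was not settled, since weak correlations cannot exclude a pairing. Over 6 same-numbered pairs the correlation of deviations ran from -0.08 to 0.24, with 1 pair above 0.1. Of these pairs 1 falls in different batches, and 1 library pair correlated best with its own number. BCL11A +25.8, whose estimate is near 0, turned positive with edgeR (0.0029), with TMM (0.0038) or total-count size factors (0.0115), without the batch term (0.0413), with at least 10 counts in every library (0.0614) and when centred on the region (0.0408) or the chromosome (0.0408), and ran from -0.15 to 0.16 when libraries were left out. Depth limits the low peaks, such as LEF1 +168.7, EBF1 +145.7 and NOTCH1 -28.1, whose intervals are wide, so that smaller differences were not detectable there.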
